A study of Homo sapiens with 3 samples.

Results

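Expression of 36 genes of glycolysis and of the hypoxia response was examined after knockdown of the arginine methyltransferase PRMT1 in HCT116, a line of human colorectal carcinoma cells. The genes were taken by name from the arrays, which carry probes for 41749 named genes, and comprised the glycolytic enzymes with lactate dehydrogenase, transporters of glucose and lactate, the hypoxia-inducible factors (HIF) and genes known as HIF targets. All 36 were found, by 47 probes, and each gene was read from its probe with the highest mean signal. The list was drawn up by gene function, at a time when earlier results of these data were known.

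Glycolysis splits glucose into pyruvate in the cytosol, and lactate dehydrogenase turns pyruvate into lactate, which is exported. When oxygen is scarce, the prolyl hydroxylases that mark the HIF alpha subunits for destruction slow down, and HIF binds DNA at the core letters RCGTG (ACGTG or GCGTG) near genes of glycolysis, glucose uptake, blood vessel growth and mitophagy. Many colorectal carcinomas use glucose at a high rate even where oxygen is at hand, and most enzymes of the pathway have several isozymes of which only some answer to HIF.

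The study asked which genes respond to loss of PRMT1, and RNA was hybridised to 1-colour Agilent arrays with probes of 60 bases. NC was the negative control (scrambled in the study's description), and KD1 and KD2 were the cells labelled PRMT1-KD1 and PRMT1-KD2, all of them HCT116 cells grown in McCoy's 5A medium with serum in ordinary humidified air, so no group was exposed to low oxygen as far as the labels say. The labels and the study's methods describe transfected siRNA and list the same pair of sequences, its results speak of short hairpin RNAs, and none of them ties a sequence to KD1 or to KD2. The listed oligonucleotides are shown because they define the treatment.
PRMT1 siRNA-1, 26 bases: cugaaguccaggucgauggugaaguc
PRMT1 siRNA-2, 19 bases: uuguagucuuuguacugcc

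Each group had 1 array, so no difference given here has a replicate check, and KD1 and KD2 are set against the same NC array, so an unusual value on NC enters both comparisons alike. Levels are normalized log2 signals, with 0 at the 75th percentile of each array, and a difference of 1 is a doubling. A level of one gene cannot be set against that of another, because probes differ in how brightly they bind. Between KD1 and KD2, which have the same target, the differences of the 17054 genes with signal above background on each array had a robust SD of 0.38 log2 units, and this was the only spread between arrays available. Of the probes, 40.7% on NC, 41.6% on KD1 and 42.3% on KD2 were well above background, and 0 spots of the 36 genes were saturated. Where a probe had several spots on 1 array, the median SD among its spots was 0.038 to 0.049 log2 units. PRMT1 itself had a level of 6.03 on NC, 2.75 on KD1 and 1.48 on KD2, which is 10.3% and 4.26% of the control signal. Of 9 markers of colon epithelium, 8 were above background on every array (VIL1 on none). Of the 8, KRT8 and CLDN3 were below NC by at least 1.5-fold in KD1, by 0.89 and 0.61 log2 units, and CDH1 was above it by that fold in both knockdowns, by 0.94 and 0.76. Of 9 markers of blood, endothelial and stromal cells that were found, 3 were above background on every array (CDH5, COL1A1 and ACTA2). All 3 were above NC in both knockdowns, by 1.46 and 0.55 for CDH5, by 0.26 and 0.62 for COL1A1 and by 0.79 and 0.34 for ACTA2. The part of these markers in the values below was not tested.

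Of the 36 genes, 32 were above background on all 3 arrays. The other 4 were not well above background on any array: EGLN3, an oxygen-sensing prolyl hydroxylase, CA9, the carbonic anhydrase often used as a marker of hypoxia, LOX, a collagen cross-linking oxidase, and SLC2A3, the glucose transporter GLUT3. Each of these is known as a gene that hypoxia can induce. Their signals give no level and no fold.

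**Figure D1:**
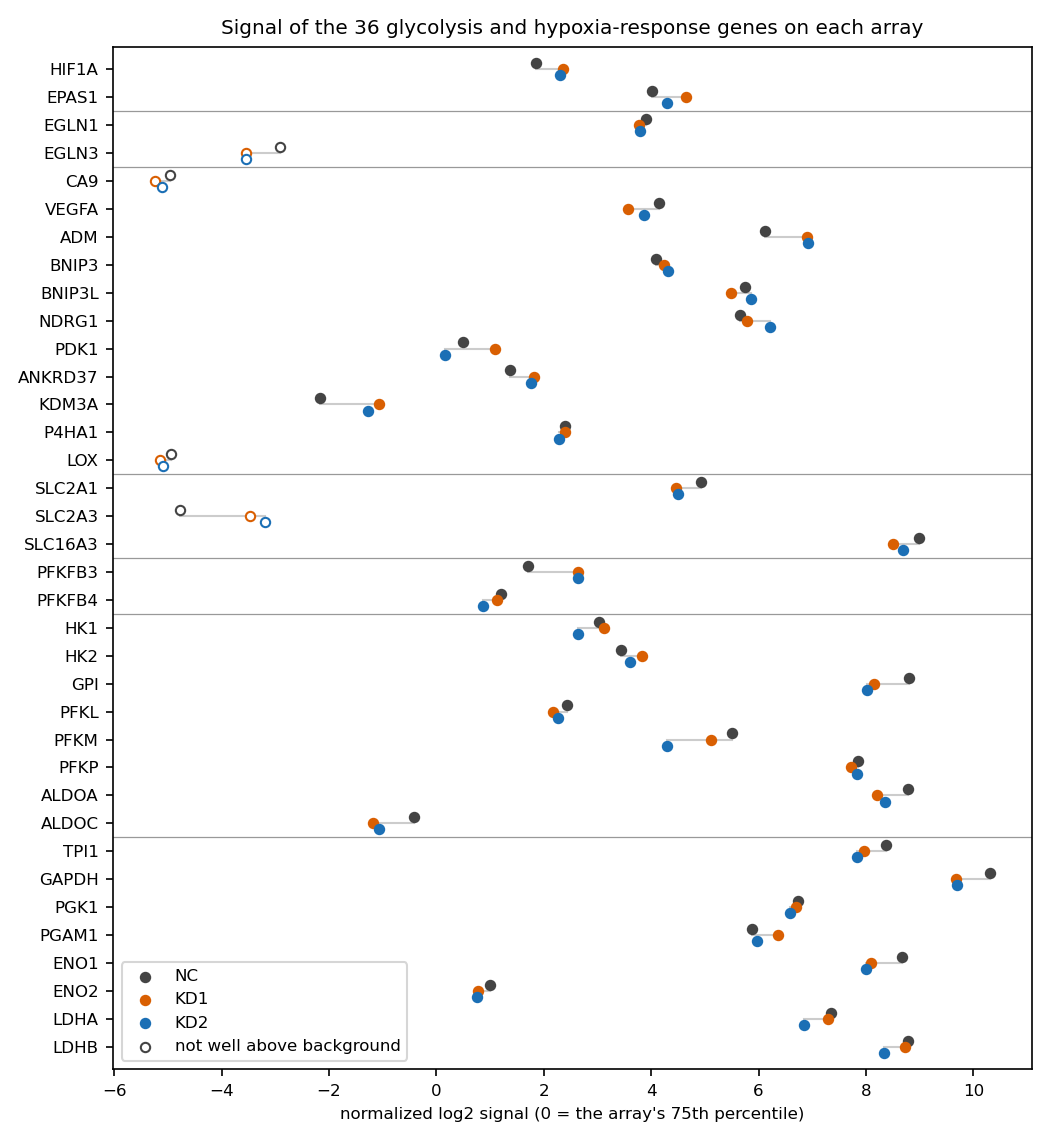
Normalized log2 signal (x axis, 0 at each array's 75th percentile) of the 36 genes (y axis, grouped by role) on the NC, KD1 and KD2 arrays, 1 point per array, open where the probe was not well above background. The 4 genes with open points lie at or below -2.92, and for GPI, ENO1 and GAPDH both knockdown points lie to the left of NC while for ADM and PFKFB3 both lie to the right.

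A gene was counted as lower or higher when it was at least 1.5-fold from NC, which is 0.58 log2 units and is the fold used in the study's methods. In KD1, 4 of the 32 measured genes were lower (GPI, ALDOC, GAPDH and ENO1), beside 14% of all genes measured, and 5 were higher (KDM3A, PFKFB3, ADM, EPAS1 and PDK1), beside 12.4%. In KD2, 5 were lower (PFKM, GPI, ENO1, ALDOC and GAPDH), beside 10.6% of all genes, and 3 were higher (PFKFB3, KDM3A and ADM), beside 9.68%. These shares, 12.5% and 15.6% in KD1 and 15.6% and 9.38% in KD2, were near the background in each direction. In the scaling used here, every gene counted as lower was grouped as a glycolytic enzyme. Every gene counted as higher was grouped as a HIF factor, a HIF target or a regulator of glycolysis. Each gene was given a single such label, although HIF also acts near genes of glycolysis, so the labels do not exclude each other. This split changed with the scaling. With median scaling, spike-in scaling or the series matrix values, the enzyme PGAM1 was also counted as higher in KD1. With spike-in scaling HK1, HK2 and PGK1 were too. VEGFA was counted as lower in KD1 with the percentile over detected probes, and SLC2A1 in KD2 with median scaling. The median over the 32 genes was -0.07 log2 units in KD1 and -0.21 in KD2, where all genes measured had -0.07 and -0.05.

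When KD1 and KD2 were treated as replicates of 1 group against NC with limma, 0 of the 32 genes had an adjusted p under 0.05, beside 0.414% of the 20050 genes tested. At an unadjusted p under 0.05 there were 3 of 32, beside 8.12%. This number moved with the setting, and so did the number among all genes tested. The 3 were KDM3A (adjusted p = 0.466 by limma), PFKFB3 (adjusted p = 0.499) and ADM (adjusted p = 0.585), each higher on both knockdown arrays, with mean differences of 0.99, 0.93 and 0.80 log2 units. The fit assumes that the lone NC array varies like the knockdown arrays, and the lowest adjusted p of any of the 32 genes over the settings tried was 0.0845.

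**Figure D2:**
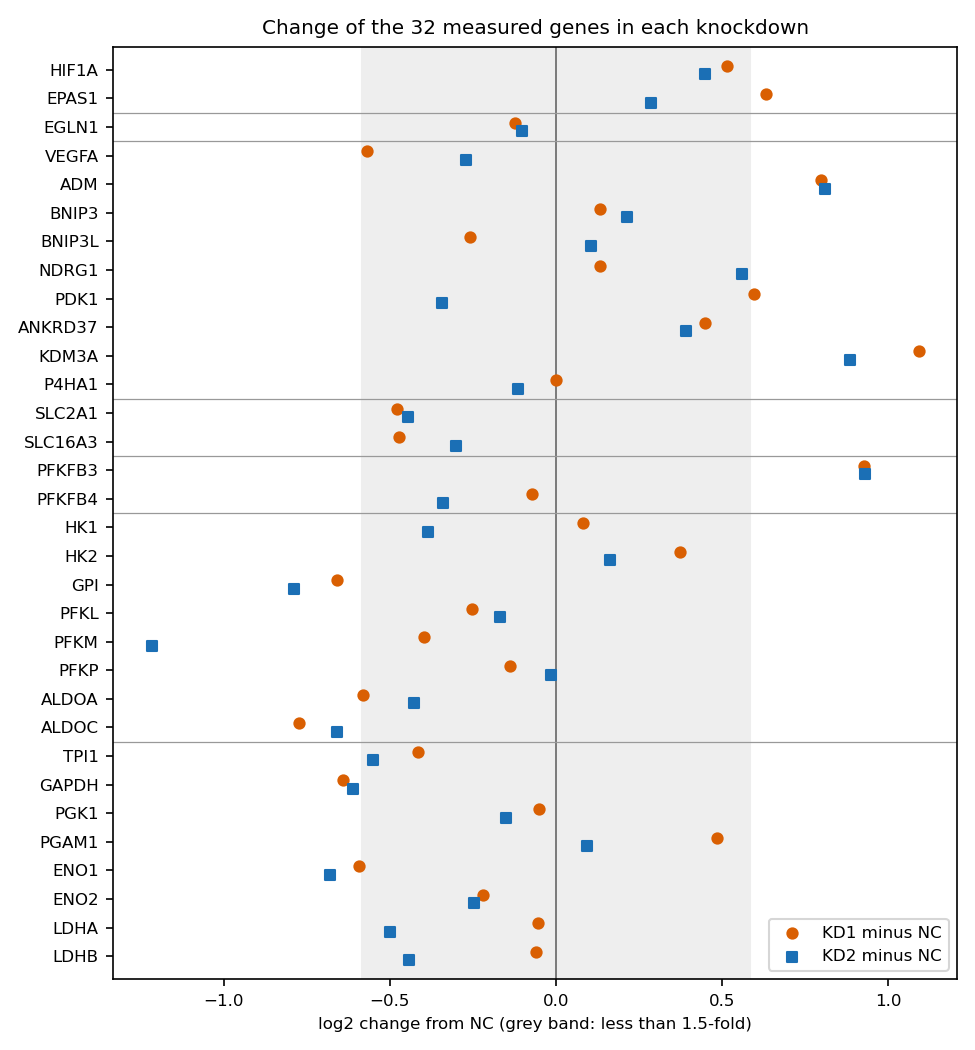
Difference from NC (x axis, log2 units) of the 32 measured genes (y axis, grouped by role as in the plot of levels) in KD1 (circles) and KD2 (squares), with the grey band marking differences under 1.5-fold. The points outside the band on the left are glycolytic enzymes, down to PFKM at -1.22 in KD2, and those on the right reach KDM3A at 1.09 in KD1.

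The 2 HIF alpha subunits were both above background. HIF1A had a level of 1.85 on NC, 2.36 on KD1 and 2.30 on KD2, differences of 0.51 and 0.45. This probe (hg19, chr14:62214845-62214904) was spotted 10 times on each array, and its spots ranged from 1.78 to 1.94 on NC, from 2.26 to 2.48 on KD1 and from 2.19 to 2.41 on KD2. The spots of either knockdown array thus did not overlap those of NC, which speaks to the measurement on these arrays and not to variation between cultures. A dimmer second probe for HIF1A (chr14:62211472-62211531) differed from NC by -0.33 in KD1 and 0.04 in KD2, and the probes were thus more than 1.5-fold apart in KD1. EPAS1, which encodes HIF-2 alpha, had a level of 4.01 on NC against 4.64 on KD1 and 4.29 on KD2, and only its difference of 0.63 in KD1 passed the fold. EGLN1, the main hydroxylase that marks HIF for degradation, stood at 3.90, 3.78 and 3.80, differences of -0.12 and -0.10 that lie within the spread between KD1 and KD2.

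Among the HIF targets, ADM was the gene with the steadiest difference. ADM encodes adrenomedullin, a peptide that widens blood vessels, and its level on NC was 6.11, with 6.91 on KD1 and 6.92 on KD2, which is 1.74-fold and 1.75-fold above the control. Its probe (hg19, chr11:10328780-10328839) was also spotted 10 times, with spots from 6.07 to 6.20 on NC, from 6.80 to 7.01 on KD1 and from 6.87 to 6.97 on KD2. ADM passed the fold in both knockdowns under all 12 alternative settings. The differences were 0.66 to 1.43 log2 units over these settings.

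KDM3A, a histone H3 lysine 9 demethylase, had a level of -2.17 on NC, -1.08 on KD1 and -1.28 on KD2, which is 2.13-fold and 1.85-fold above the control. The probe spans 86718371 to 86719192 on chromosome 2 of hg19, more than its 60 bases, and therefore reads across an exon junction. These signals are dim, and with normexp background correction the differences were 0.31 and 0.29 and did not pass the fold. PDK1, pyruvate dehydrogenase kinase 1, which holds pyruvate back from the mitochondria, went in opposite directions in the 2 knockdowns. Its level on NC was 0.50, with 1.097 on KD1 and 0.16 on KD2. The difference from NC was 0.60 in KD1, just past the fold, and -0.34 in KD2.

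The other genes grouped as HIF targets stayed within 1.5-fold. NDRG1, a stress-response gene, came nearest in KD2, with levels of 5.66, 5.79 and 6.21 on NC, KD1 and KD2 and a difference of 0.56 in KD2. ANKRD37, an ankyrin repeat gene, differed by 0.45 and 0.39, and BNIP3, a mitophagy receptor, by 0.13 and 0.21. P4HA1, a subunit of collagen prolyl 4-hydroxylase, had 2.39 on NC, the same on KD1 and 2.28 on KD2. VEGFA, the vascular growth factor, stood at 4.14 on NC, 3.57 on KD1 and 3.87 on KD2, so its brightest probe (chr6:43746223-43746634) was below NC by 0.57 and 0.27, while a second probe (chr6:43753511-43753570) was above NC by 0.41 and 0.35. BNIP3L, the relative of BNIP3, was read by 3 probes whose differences were -0.26, 0.44 and -0.52 in KD1 and 0.11, 0.42 and 0.29 in KD2. For HIF1A, VEGFA, BNIP3L and PFKFB3 the probes of a gene therefore differed by more than 1.5-fold in at least 1 knockdown, and whether they read different transcripts was not tested.

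**Figure D3:**
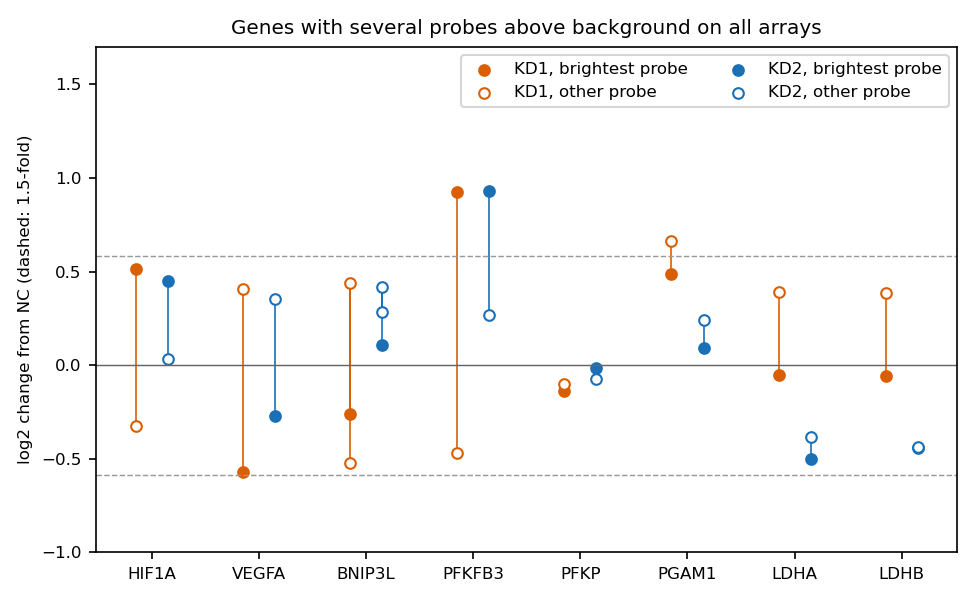
Difference from NC (y axis, log2 units) of each probe well above background on every array, for the 8 genes (x axis) with several such probes, in KD1 and KD2. Filled points are the brightest probe of a gene and open points its other probes, and dashed lines mark 1.5-fold. The probes of PFKP nearly coincide, and those of HIF1A, VEGFA and PFKFB3 lie on both sides of 0 in KD1.

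The glycolytic enzymes, the transporters and PFKFB3 and PFKFB4 were grouped apart from the HIF targets. HIF also acts near genes of glycolysis and glucose uptake, so this set depends on how the genes were grouped. Over the 10 HIF targets so grouped that were measured, EGLN1 included, the median difference was 0.13 in KD1 and 0.16 in KD2. All genes measured had -0.07 and -0.05. The median of these HIF targets is followed here. It stayed above 0 in both knockdowns under each scaling tried, from 0.01 with median scaling in KD2 to 0.77 with spike-in scaling in KD1. With no filter and no floor, so that targets near background enter, the median was 0.0007 in KD1 and turned to -0.10 in KD2. Of the 10, 3 passed the fold upward in KD1 and 2 in KD2, which is 30% and 20% beside 12.4% and 9.68% of all genes, and 0 passed it downward, beside 14% and 10.6%.

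Of the transporters of glucose and lactate in the main gene list, SLC2A1 and SLC16A3 were above background. Other transporters outside that list, SLC2A6, SLC2A8 and SLC16A1 among them, were also above background on every array. Transport itself was not measured. SLC2A1, the glucose transporter GLUT1, had a level of 4.93 on NC, 4.46 on KD1 and 4.49 on KD2. SLC16A3, the lactate exporter MCT4, had 8.98 on NC, 8.51 on KD1 and 8.68 on KD2. Both were below NC on both knockdown arrays, by 0.48 and 0.45 for SLC2A1 and by 0.47 and 0.30 for SLC16A3, none of them past the fold, and with spike-in scaling both KD1 values were above NC instead, by 0.16.

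PFKFB3 and PFKFB4 make and break down fructose-2,6-bisphosphate, the strongest activator of phosphofructokinase. PFKFB3 had a level of 1.71 on NC and 2.64 on both KD1 and KD2, which is 1.90-fold above the control in each. The difference of 0.93 came from the probe at chr10:6277062-6277121 (hg19). The second probe of PFKFB3, over chromosome 10 positions 6266166 to 6268203, differed by -0.47 in KD1 and 0.27 in KD2, and with the mean over both probes the KD1 value was 0.23 and no longer past the fold. PFKFB4 was at 1.205, 1.133 and 0.863, within 1.5-fold of NC in both knockdowns.

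The glycolytic enzymes were described in the order of the pathway. The hexokinases HK1 and HK2, which trap glucose in the cell, differed from NC by 0.08 and 0.37 in KD1 and by -0.38 and 0.16 in KD2, all within the fold. GPI, which turns glucose-6-phosphate into fructose-6-phosphate, had a level of 8.80 on NC, 8.14 on KD1 and 8.01 on KD2. GPI was thus at 63.3% and 57.9% of the control signal, lower on both knockdown arrays by more than the fold.

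Phosphofructokinase, the committed step, is built from 3 isozymes, and their values differed. PFKM, the muscle form, had a level of 5.51 on NC, 5.12 on KD1 and 4.30 on KD2, a difference of -0.40 in KD1 and of -1.22 in KD2, where it was at 43% of the control. PFKM passed the fold in KD2 under all 12 alternatives and in KD1 under 0. The liver form PFKL differed by -0.25 and -0.17, and the platelet form PFKP by -0.14 and -0.02, with a second PFKP probe at -0.10 and -0.07.

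Aldolase splits the 6-carbon sugar, and its isozymes ALDOA and ALDOC were both below NC on both arrays. ALDOA stood at 8.79 on NC against 8.21 on KD1 and 8.36 on KD2, and its difference of -0.58 in KD1 fell just short of the fold. ALDOC, whose level on NC was -0.41, with -1.19 on KD1 and -1.07 on KD2, passed it in both, at 58.5% and 63.3% of the control. The ALDOC signals are dim, and neither difference passed the fold with normexp, spike-in scaling or the series matrix values. TPI1, triosephosphate isomerase, had 8.38, 7.96 and 7.83, differences of -0.41 and -0.55 within the fold.

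GAPDH, the first enzyme of the energy-yielding part and the gene to which the study's quantitative PCR was normalised, had a level of 10.31 on NC, 9.67 on KD1 and 9.70 on KD2. It was 1.56-fold and 1.53-fold below the control. Its probe (hg19, chr12:6646918-6646977) was spotted 10 times, of which 8 spots were usable on KD1, and the spots ranged from 10.23 to 10.39 on NC, from 9.61 to 9.72 on KD1 and from 9.62 to 9.75 on KD2. The spots of the knockdown arrays did not overlap those of NC in this scaling. With spike-in scaling, which shifts all values of an array by 1 amount, GAPDH differed from NC by -0.01 in KD1 and -0.32 in KD2.

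PGK1, phosphoglycerate kinase, was nearly level, at 6.74 on NC, 6.69 on KD1 and 6.59 on KD2. PGAM1, phosphoglycerate mutase, was one of 3 enzymes above NC in KD1, by 0.48, and stood 0.09 above it in KD2. ENO1, enolase 1, had 8.68 on NC, 8.08 on KD1 and 7.996 on KD2, at 66.3% and 62.4% of the control and just past the fold in KD1. In KD1 the values of GPI, GAPDH and ENO1 were short of the fold with quantile, cyclic loess, median and spike-in scaling. They were also short of it with the series matrix values, and those of GAPDH and ENO1 with normexp. ENO1 in KD1 was short of it with the percentile over each array's own probes, and 0.044 above NC with spike-in scaling. In KD2, GAPDH and ENO1 were short of the fold with quantile, cyclic loess and spike-in scaling and the series matrix values. GAPDH in KD2 was also short of it with the percentile over detected probes. GPI in KD2 was short of it with spike-in scaling alone. ENO2, the neuronal form, differed by -0.22 and -0.25.

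By their brightest probes, the lactate dehydrogenase subunits lay nearer to NC in KD1 than in KD2. This order turned with spike-in scaling, where LDHA differed by 0.58 in KD1 and -0.21 in KD2 and LDHB by 0.58 and -0.15. For LDHB it also turned, by a small margin, with the series matrix values, and the KD1 difference of each changed sign under 7 of the 12 alternatives. In the scaling used here, LDHA had a level of 7.34 on NC against 7.28 on KD1 and 6.84 on KD2, and LDHB had 8.78, 8.72 and 8.34. In KD1 they were 0.05 and 0.06 below NC, and in KD2 0.50 and 0.44 below it, short of the fold. A second LDHB probe differed by 0.38 and -0.44. The second probe listed for LDHA is placed on chromosome 9 in the files, away from the gene on chromosome 11, and differed by 0.39 and -0.39. Several of these enzymes, GAPDH and LDHA among them, have processed pseudogenes of near-identical sequence, and whether any probe also reads those was not tested.

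Of the 16 enzymes, 13 were below NC in KD1 and 14 in KD2, beside 10675 of 19231 and 10550 of 19421 of all genes measured. The median difference was -0.24 in KD1 and -0.44 in KD2, and in KD1 it turned to 0.40 with spike-in scaling and 0.18 with the series matrix values, whereas in KD2 it stayed between -0.15 and -0.59 under every scaling. Relative to the median of the 17054 genes, which each of the single-factor scalings shifts with it, the enzymes' median was -0.17 in KD1 and -0.37 in KD2, and that of the HIF targets 0.20 and 0.22. Of the 16, 4 were lower by the fold in KD1 and 5 in KD2, which is 25% and 31.2% beside 14% and 10.6% of all genes, and 0 were higher, beside 12.4% and 9.68%.

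The brightness of the probes ran alongside these values. When the 17054 genes were ordered by mean signal and cut into 10 equal classes, 13 of the 32 genes fell into the brightest class, 10 of them glycolytic enzymes. All genes of that class had a median difference of -0.19 in KD1 and -0.17 in KD2, with 10.2% and 8.68% of them lower by the fold and 3.22% and 3.05% higher. The 13 had -0.14 and -0.43, with 3 lower and 1 higher in each knockdown. With cyclic loess, which removes trends with brightness, ALDOC alone was counted as lower in KD1, beside 11% of all genes. GPI, PFKM and ALDOC were lower in KD2, beside 9.63%, and ADM, KDM3A and PFKFB3 were higher in both. The enzymes' median relative to that of all genes was -0.21 in KD1 and -0.28 in KD2 with it. In the scaling used here these values were -0.17 and -0.37. The part of brightness in the lower values of the enzymes was not tested.

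**Figure D4:**
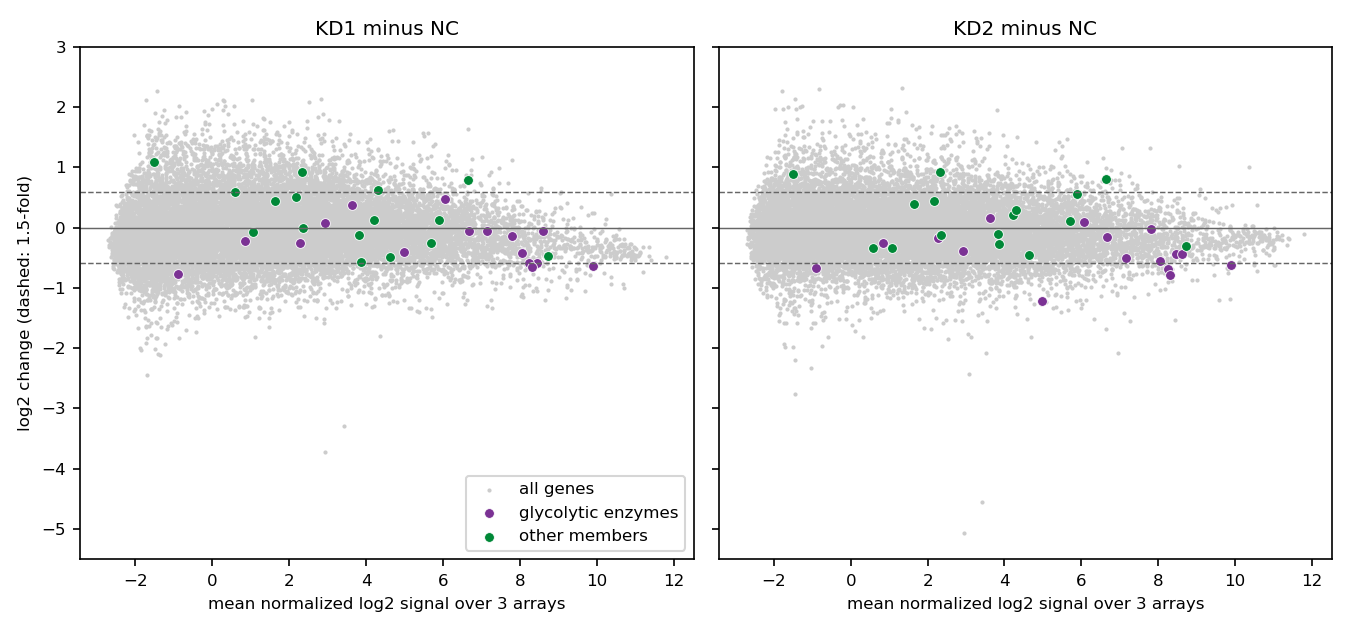
Difference from NC (y axis, log2 units) against the mean normalized log2 signal over the 3 arrays (x axis) for the same 17054 genes, in KD1 (left) and KD2 (right), with the glycolytic enzymes in purple, the other genes described here in green and dashed lines at 1.5-fold. At the bright end the grey points drift below 0 in both panels, and most of the enzymes with a mean signal above 7 lie there.

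KD1 and KD2 were then compared with each other. Of the 32 genes, 0 were lower in KD1 than in KD2 by the fold, beside 9.66% of all genes, and 2 were higher, beside 8.94%. These were PDK1, by 0.94 log2 units, and PFKM, by 0.82. Both differences are over 2 times the robust SD of 0.38 between these arrays. That SD comes from the same comparison, so it does not test genes singled out for a large difference. Counted from the lowest difference, PDK1 ranked 19030 and PFKM 18815 of the 19544 genes measured. The next were HK1 at 0.47, LDHA at 0.45, NDRG1 at -0.43 and PGAM1 at 0.39, all within the fold. With median scaling, spike-in scaling or the series matrix values, 7, 8 and 7 genes were higher in KD1, beside 21.2%, 27.1% and 24.7% of all genes.

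The sequence before the transcription start was examined for the HIF core letters, ACGTG and GCGTG on either strand, in windows of 250 bases that RefSeq lists for genome build GRCh38.p14. Of the 36 genes, 32 had an entry (NDRG1, BNIP3L, SLC2A3 and VEGFA had none), with 62 start sites together. A core stood in 39 of these windows (62.9%), beside 15172 of 35116 windows of all genes (43.2%). ACGTG was in 40.3% of the windows of the 36 genes and 18.5% of all windows, and GCGTG in 35.5% and 32.2%. Counted by gene, 28 of the 32 with an entry had a core in at least 1 window. The 3 genes that were higher in both knockdowns had a core in 5 of 5 windows. The 4 that were lower in both had one in 4 of 4, so that the presence of the letters did not divide higher from lower genes. Windows of 1 gene can overlap, and those of KDM3A hold the same core, so the windows are not independent counts. The list holds HIF target genes by choice, so the share of 62.9% is not independent of how the list was made.

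The windows of the genes that passed the fold in 1 direction in both knockdowns, and that have a single listed start, are shown, 1 higher gene and 4 lower genes. They are written 5′ to 3′ on the gene's strand, ending at the base before the start, with the core letters in capitals, and CACGTG holds ACGTG on both strands.
ADM, chr11:10304823-10305072, plus strand: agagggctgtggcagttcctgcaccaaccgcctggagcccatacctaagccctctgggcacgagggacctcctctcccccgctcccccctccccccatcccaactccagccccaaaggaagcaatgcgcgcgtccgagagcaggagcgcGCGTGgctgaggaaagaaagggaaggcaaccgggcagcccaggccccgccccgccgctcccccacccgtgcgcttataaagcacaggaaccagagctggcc
GPI, chr19:34364742-34364991, plus strand: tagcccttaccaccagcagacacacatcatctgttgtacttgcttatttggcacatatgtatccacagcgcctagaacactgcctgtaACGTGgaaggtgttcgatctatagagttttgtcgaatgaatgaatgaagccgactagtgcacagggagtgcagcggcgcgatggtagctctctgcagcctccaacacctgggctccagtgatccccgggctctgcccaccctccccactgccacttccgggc
ALDOC, chr17:28576896-28577145, minus strand: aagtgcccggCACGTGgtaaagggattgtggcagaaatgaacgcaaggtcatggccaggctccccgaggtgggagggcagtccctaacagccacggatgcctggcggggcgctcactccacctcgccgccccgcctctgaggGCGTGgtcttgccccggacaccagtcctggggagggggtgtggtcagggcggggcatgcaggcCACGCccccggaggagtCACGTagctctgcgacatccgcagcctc
GAPDH, chr12:6535014-6535263, plus strand: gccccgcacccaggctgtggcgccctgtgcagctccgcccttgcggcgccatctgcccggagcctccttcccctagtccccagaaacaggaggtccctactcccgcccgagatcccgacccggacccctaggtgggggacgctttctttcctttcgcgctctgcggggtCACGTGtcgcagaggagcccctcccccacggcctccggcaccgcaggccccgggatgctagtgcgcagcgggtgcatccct
ENO1, chr1:8878687-8878936, minus strand: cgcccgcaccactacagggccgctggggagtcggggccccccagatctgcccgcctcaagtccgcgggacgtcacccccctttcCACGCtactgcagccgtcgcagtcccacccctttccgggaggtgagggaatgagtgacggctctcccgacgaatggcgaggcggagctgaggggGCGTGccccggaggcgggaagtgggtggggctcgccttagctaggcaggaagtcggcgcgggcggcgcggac
ADM held a single GCGTG 101 bases before the start. GPI held a single ACGTG at 162 bases. GAPDH held the palindrome CACGTG near position 81 before the start, ENO1 held GCGTG on opposite strands at 166 and 72 bases, and ALDOC had 5 cores of both kinds. A match of letters is a description of the window and does not show that HIF binds there in HCT116 cells.

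The rest of the pathway was taken from lists of 104 further genes, all of them on the arrays. Their counts stand beside the shares over all genes measured, 14% lower and 12.4% higher in KD1 and 10.6% lower and 9.68% higher in KD2. Among other glycolytic enzymes and transporters, 14 of 23 were measured in each knockdown, and 3 were higher in KD1 and 1 in KD2 (21.4% and 7.14%), with 0 lower. The gene higher in both was PFKFB2, a relative of PFKFB3, with 1.00 on NC, 1.77 on KD1 and 1.68 on KD2, while its second probe, above background on 2 of the 3 arrays, differed by 0.39 and 0.29, short of the fold. Among 12 measured genes for entry of pyruvate into mitochondria, 1 was lower and 1 higher in KD1 (8.33% each), and 2 were lower in KD2 (16.7%). PDK2, which like PDK1 inhibits pyruvate dehydrogenase, was lower in both, with 2.52 on NC against 1.45 on KD1 and 1.78 on KD2, and its second probe agreed in sign at -0.89 and -0.90.

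In the pentose phosphate pathway, which leads glucose-6-phosphate away from glycolysis, 8 of 9 genes were measured. In KD1, 1 was lower and 1 higher, and in KD2, 4 were lower and 1 higher, which is 12.5% each way in KD1 and 50% and 12.5% in KD2. The median difference was -0.20 in KD1 and -0.50 in KD2, beside -0.07 and -0.05 for all genes. TKTL1, a transketolase relative, was higher in both, with -2.60 on NC, -1.75 on KD1 and -1.34 on KD2. Of 12 measured genes of gluconeogenesis and glycogen, 2 were higher and 0 lower in KD1 (16.7% and 0%), and 1 was higher and 2 lower in KD2 (8.33% and 16.7%), none of them the same way in both. HIF partners and regulators gave 1 lower and 2 higher of 15 in KD1 (6.67% and 13.3%) and none past the fold in KD2.

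Among 30 further HIF targets, 27 were measured. In KD1, 8 were higher and 1 lower, 29.6% and 3.7% of them beside the shares of 12.4% and 14% of all genes. In KD2, 6 were higher and 0 lower, 22.2% beside 9.68%. The median difference was 0.20 in KD1 and 0.03 in KD2. Among those past the fold upward in both were DDIT4, an inhibitor of mTOR signalling, KDM4C, a histone demethylase, and BHLHE40, a transcriptional repressor. DDIT4 had 2.29 on NC against 3.25 on KD1 and 3.19 on KD2, and BHLHE40 had 2.50, 3.47 and 3.53. KDM4C had 0.56, 2.12 and 1.55 by its brightest probe, while its other probes above background on all arrays differed by -0.33 and 0.12 in KD1 and by -0.03 and -0.11 in KD2. These genes also answer to signals other than low oxygen, and no measure of HIF protein or oxygen was made on these arrays.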

How the data were processed

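RNA of HCT116 cells was hybridised to 3 arrays (NC, KD1 and KD2). The authors deposited the scanner output, in which Agilent Feature Extraction 10.7.1.1 gives a fluorescence intensity per spot, background-corrected on each array and, per the file headers, not scaled between arrays, together with flags per spot. The deposited series matrix holds unscaled intensity values and served as an alternative. Probe positions refer to hg19.

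Control spots and spots flagged as non-uniform or population outliers were left out (130 probes lost every spot on some array). Spots were averaged as log2 values, and the 75th percentile of each array was subtracted. The 1507 probes without gene name were not used. A gene was measured in a comparison where any array compared showed its probe well above background, and on an array without such a signal took at least the lowest one there. A secondary fit used limma (lmFit, then eBayes, adjusted by Benjamini-Hochberg) and was tested on simulated data. Members and lists were chosen with earlier results of these data known. Named genes were all 36 members, PRMT1, pathway genes over 1.5-fold from NC in 1 direction in both, and every probe of members whose probes disagreed. Some pathway genes that this rule names are counted in their lists but not reported here by name. Alternatives were normexp (offset 50), quantile, cyclic loess, median, detected-probe percentile and spike-in scaling (8 probes), series matrix values, other filters, the mean over probes, a list's mean, flagged spots kept, an intensity trend in limma, a fold of 2 and, added after seeing the data, a percentile over each array's own probes. Fits ran in R 4.3.3 with limma 3.58.1, and the rest in Python 3.11.15 with pandas 2.3.3, numpy 2.4.6 and, for plots, matplotlib 3.10.9. Precision is limited by having 3 arrays. Array scans shared 1 slide. Knockdowns of SMARCA4 were not used here.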

Additional observations from a re-analysis of the deposited data

Results flagged for a closer look

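PDK1, pyruvate dehydrogenase kinase 1, lay above NC in KD1 (0.60 log2 units) and below it in KD2 (-0.34), the only one of the genes past 1.5-fold in 1 knockdown with the opposite sign in the other. Its value was 0.94 log2 units higher in KD1 than in KD2. The difference was not tested, since each knockdown had 1 array. The sign of both values was the same under all 12 alternatives, and the KD1 value was below 1.5-fold with normexp, with quantile normalization and with the percentile over detected probes.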

How the results depend on the processing

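Scaling to the spike-in probes shifted the median of all genes to 0.57 in KD1 and 0.22 in KD2, the series matrix values to 0.35 and 0.04, and median scaling to 0.05 and -0.22. With spike-in scaling and with the series matrix values in turn, PRMT1 in KD1 was at -2.65 and -2.87, the median of the HIF targets in KD1 at 0.77 and 0.55, that of the glycolytic enzymes at 0.40 and 0.18 and that of all members at 0.57 and 0.35. Members higher in KD1 numbered 14 and 9, beside 48.5% and 32.5% of all genes, and lower in KD1 0 and 0, beside 1.96% and 3.58%. Those lower in KD2 numbered 1 and 2, beside 3.64% and 7.41%. Those higher in KD1 than in KD2 numbered 8 and 7, beside 27.1% and 24.7%. Spike-in scaling gave 6 higher in KD2, beside 22.4%. ENO1 in KD1 turned to 0.044 with spike-in scaling. Median scaling gave 1 lower in KD1, beside 9.61% of all genes, and 9 lower in KD2, beside 18.1%. It gave 7 higher in KD1 than in KD2, beside 21.2%. Quantile normalization and cyclic loess each gave 1 lower in KD1, beside 12.6% and 11% of all genes. Each gave 3 lower in KD2, beside 10.1% and 9.63%. Normexp gave 3 higher and 1 lower in KD1, beside 8.63% and 5% of all genes. The percentile over detected probes gave 3 higher in KD1, beside 11%. The mean over probes gave 4 higher in KD1 than in KD2, beside 8.38%. A fold of 2 left 1 higher and 0 lower in KD1, beside 4.19% and 3.57% of all genes. In KD2 it left 0 higher and 1 lower, beside 2.89% and 2.48%. It left 0 higher in KD1 than in KD2, beside 2.28%. With no filter and no floor, the median of the HIF targets in KD2 was -0.10. Apart from the changes of scale, the cause was not tested. The other summary values, 160 in all, and 698 values of single members stayed within the spread between KD1 and KD2 or kept their count, while 69 values of single members moved further. The number of all genes with a limma adjusted p under 0.05 ran from 0 to 258 over the settings, and that of members was 0 in each of the 14. Leaving out an array would leave a group empty. No paired analysis was possible because each group has 1 array. Depth does not apply to arrays, and the 4 genes near background had no usable level.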
